A study of Saccharomyces cerevisiae with 6 samples.

Results

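The histone genes of Saccharomyces cerevisiae were followed in RNA from 2 strains. The members are the rows of the authors' deposited table that carry a histone gene name from a given list of 10 names, and 10 of the 5479 gene models in the table met this rule, all of them tested by the authors. Libraries came from 3 independent chemostat cultures of each strain. The reference was CEN.PK113-7D, a laboratory strain with ACS1 and ACS2 intact. IMY104 carries deletions of both genes, whose enzymes make acetyl-CoA from acetate in the cytosol and nucleus, and the plasmid pUDC140 with pdhA, pdhB, aceF and lpd for the pyruvate dehydrogenase of Enterococcus faecalis and lplA and lplA2 for its lipoylation. Both strains grew aerobically with glucose as the limiting nutrient at 0.10 per h, 30 °C and pH 5.0, fed lipoic acid at 500 ng/mL and glucose at 7.5 g/L. The table's own name for the IMY104 libraries holds that of a different CEN.PK strain, and whether IMY104 is 1 clone is not given in the sources used here.

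For each strain the table gives 1 FPKM value, combined by the authors over the 3 libraries. By its name this unit is fragments scaled by model length and library total, and the scaling that the authors used is not stated. Beside it stand a log2 fold change (IMY104 over the reference, called log2 change here), a p-value and a q-value. No value per library is given, so no SD stands beside any level and the depth is unknown. A gene is called, and is said here to have fallen or risen, where the authors' q was under 0.05. The deletion labels held: ACS1 and ACS2 had 494 to 1094 FPKM in the reference and at most 0.882 in IMY104, and the 7 gene models on the plasmid had 344 to 10685 FPKM in IMY104 and at most 2.74 in CEN.PK113-7D by the authors' deposited table.

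Nucleosomes wrap DNA around an octamer of the core histones H2A, H2B, H3 and H4. Budding yeast has a pair of genes for each core histone, arranged as 4 divergent pairs that share the DNA between them: each H2A gene is paired with an H2B gene and each H3 gene with an H4 gene. Transcription peaks as DNA replication begins. The factor Spt10 activates all of these pairs through sites in the shared DNA, and the HIR complex represses them outside S phase except for HTA2-HTB2. The variant H2A.Z, from HTZ1, replaces H2A beside many promoters, and HHO1 encodes the linker histone H1.

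By the names in the table, HHT2 (H3) and HHF2 (H4) each stood on 2 models and HHT1 and HHF1 on none. One H3-H4 pair lies on chromosome 14 (HHT2, 569627 to 570037; HHF2, 570714 to 571025, in the authors' coordinates on their own assembly). The other, also named HHF2 and HHT2, lies on chromosome 2 (256003 to 256314 and 256962 to 257372). In the R64 annotation of the S288C reference strain, the genes at this place on chromosome 2, divergent and between FLR1 and IPP1, are HHF1 and HHT1, with coding lengths of 312 and 411 bp, equal to those of the models. The bases between the genes numbered 647 in the authors' coordinates and 646 in R64, against 676 in both for the pair of chromosome 14. The 18 named models among the 10 on each side of the chromosome 2 pair were all neighbours of HHF1 and HHT1 in R64. These models are therefore given as the chromosome 2 H3 and H4 genes, HHT1 and HHF1 by position, and all 4 pairs are then present, 8 models, with HTZ1 and HHO1 as the remaining members.

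Because all the pairs share an activator, the Spt10 elements between the genes were read from the R64 reference, not from CEN.PK sequence, at the place that its own annotation gives for each named gene. The element was searched on both strands as TTCC, 6 bases of any kind, and TTCNC. Each stretch is printed 5′ to 3′ on the strand of the match, with the fixed bases of the element in capitals and 10 bases on either side.
HTA1-HTB1, forward strand of chromosome IV, 401 bases from each start codon: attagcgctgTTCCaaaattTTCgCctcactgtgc
HTA1-HTB1, reverse strand of chromosome IV, 378 bases before HTA1 and 424 before HTB1: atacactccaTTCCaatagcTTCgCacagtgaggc
HTA2-HTB2, reverse strand of chromosome II, 315 bases before HTA2 and 369 before HTB2: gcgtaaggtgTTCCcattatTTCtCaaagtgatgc
HHT1-HHF1, reverse strand of chromosome II, 259 bases before HHF1 and 372 before HHT1: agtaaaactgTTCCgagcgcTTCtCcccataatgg
HHT2-HHF2, reverse strand of chromosome XIV, 295 bases before HHT2 and 366 before HHF2: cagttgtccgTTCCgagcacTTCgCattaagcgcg
The region between HTA1 and HTB1 held 2 matches and each of the other 3 regions held 1. In windows of 500 bases before the start codon, the 8 core histone genes held the element and HTZ1 and HHO1 did not, while 2.90% of 6006 genes held it. The element was chosen because Spt10 acts on these pairs, so its presence before them is no separate result. Both genes of a pair share the region between them, so each match counts for both. A pair of matches in 1 window was found for HTA1 and HTB1 and for 0.133% of genes. CGCGAAA, the core of the site bound by the G1/S factor Swi4, stood before HTB1, HHT2, HHF2 and HHO1 and before 5.81% of genes, and ACGCGT, bound by Mbp1, before HTA2 and HTB2 and before 5.43% of genes. TATAAA stood before HTA1, HTB1, HHT1, HHF1 and HHT2, and before 60.5% of genes. All were searched on both strands, and none of these shorter motifs overlapped the 5 printed elements. A match of letters is a description and not a bound site.

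Of the 10 histone models, 6 fell in IMY104, none rose and 4 were not called by the authors' deposited table. Over all 5463 models tested, 11% were called lower and 11.6% higher. The members that fell were HTA1, HTB1, HTA2, HTB2 and the chromosome 2 H3 and H4 genes; the chromosome 14 H3 and H4 genes, HTZ1 and HHO1 were not called. In bulk RNA, a smaller share of cells in S phase and less histone RNA per cell cannot be told apart. The protocols name no step that keeps the strand, so antisense RNA would add to a gene's value. The median log2 change was -0.28 over the 10 members and 0.0076 over all chromosomal models tested, whose quartiles were -0.11 and 0.14. Other models at or above a mean of 1000 FPKM, of which there were 359, had their median log2 change at -0.05, and 19.2% of them were called lower. At q under 0.01, 4 of the 10 members were called lower (HTA1, HTB1, HTB2 and the chromosome 2 H4 gene), beside 8.51% of all models tested. With adjustment over models of at least 10 FPKM on average, 6 members were called lower, beside 11.2% of those models. Under quantile normalization, described below, the median of the members was -0.13, with 7 of them below 0. Calls were not remade under that scaling.

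**Figure D1:**
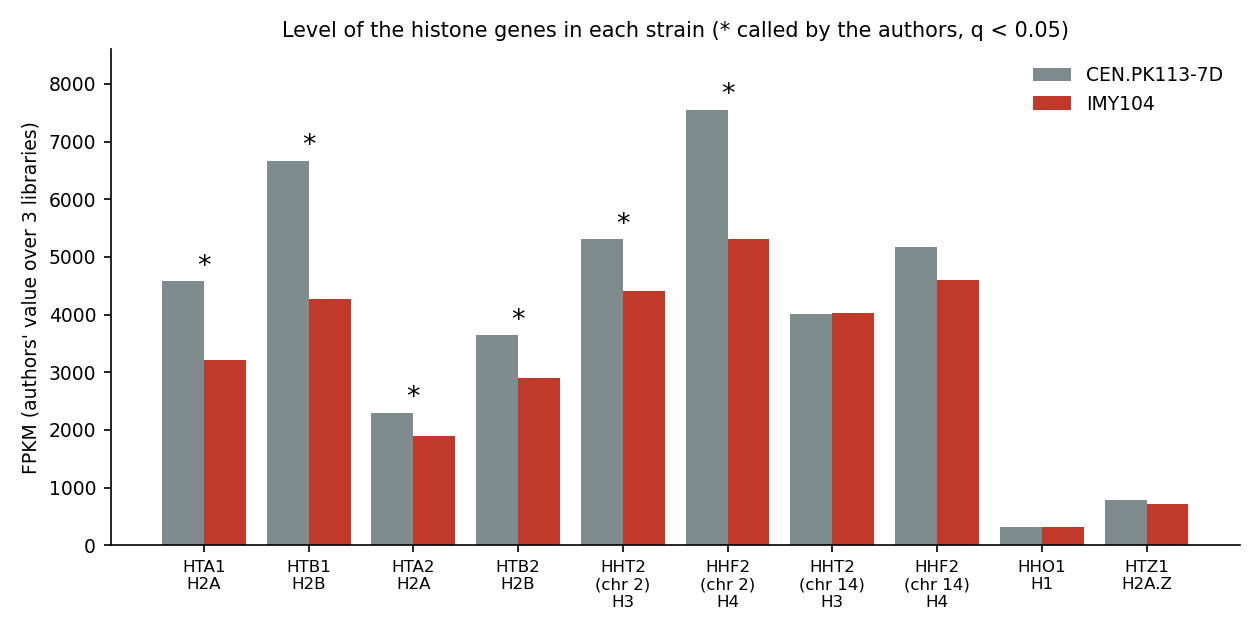
Level of each histone model in CEN.PK113-7D (grey bars) and IMY104 (red bars), in FPKM combined by the authors over 3 libraries, with no error bar because no value per library is given. Asterisks mark the 6 models that the authors called lower. The chromosome 14 H3 gene (4018 and 4030 FPKM) has bars of near equal height on the authors' scaling and was not called.

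HTA1 and HTB1, the H2A and H2B genes of chromosome 4, had the lowest pair mean. HTA1 (YDR225W, 914559 to 914957) had 4579 FPKM in the reference and 3217 in IMY104 by the authors' deposited table, a log2 change of -0.51 (q = 0.00047). HTB1 (YDR224C, 913346 to 913741) went from 6665 to 4267 FPKM, a log2 change of -0.64 (q = 0.00047) by the authors' deposited table. Both carry the smallest p that the table holds, 5e-05, so these genes cannot be ranked by p. HTB1 thus had the lowest log2 change of the 10 members, and 2.36% of chromosomal models tested lay below it.

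HTA2 and HTB2, the pair of chromosome 2 that encodes nearly the same proteins, fell by less in value. HTA2 (YBL003C, 236026 to 236424) had 2302 FPKM in the reference and 1888 in IMY104, a log2 change of -0.29 (q = 0.0187) by the authors' deposited table. HTB2 (YBL002W, 237123 to 237518) had 3641 and 2907 FPKM, a log2 change of -0.32 (q = 0.00668) by the authors' deposited table. The genes of this pair were 0.039 apart on the log2 scale, against 0.134 for HTA1 and HTB1. The mean log2 change was -0.58 for HTA1-HTB1 and -0.31 for HTA2-HTB2, a difference of -0.27 that could not be tested, since the table holds no value per library.

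The H3-H4 pairs differed in their calls. On chromosome 2 the H4 gene (HHF1 by position) had 7554 FPKM in the reference and 5314 in IMY104. Its log2 change was -0.51 (q = 0.00047) by the authors' deposited table. Its FPKM was the highest of all members in both strains, though H4 levels against the other histones are less certain, as given below. The H3 gene beside it (HHT1 by position) had 5306 and 4407 FPKM, a log2 change of -0.27 (q = 0.0393) by the authors' deposited table, which was the highest q among the called members. On chromosome 14, HHT2 had 4018 and 4030 FPKM, a log2 change of 0.0043 (q = 0.986) by the authors' deposited table. HHF2 of chromosome 14 had 5164 and 4607 FPKM, a log2 change of -0.16 (q = 0.252) by the authors' deposited table. Within both pairs the H4 gene had the lower log2 change, by 0.24 on chromosome 2 and 0.169 on chromosome 14. The pair means were -0.39 and -0.08, a difference of -0.31 that was not tested either.

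HTZ1 and HHO1 stood apart in level. HTZ1 (YOL012C, chromosome 15, 303481 to 303885), for H2A.Z, had 787 FPKM in the reference and 711 in IMY104, a log2 change of -0.15 (q = 0.290) by the authors' deposited table. Its level was 11.4% of the summed H2A level of HTA1 and HTA2 in CEN.PK113-7D and 13.9% in IMY104. HHO1 (YPL127C, chromosome 16, 308711 to 309487), for histone H1, had 321 and 320 FPKM, a log2 change of -0.0044 (q = 0.985) by the authors' deposited table, the lowest level of the 10 members. The 8 core genes lay between 2302 and 7554 FPKM in CEN.PK113-7D, ranks 46 to 155 of the 5463 models tested, where the median was 83.6 FPKM. In CEN.PK113-7D they ran, from the highest, as the chromosome 2 H4 gene, HTB1, the chromosome 2 H3 gene, the chromosome 14 H4 gene, HTA1, the chromosome 14 H3 gene, HTB2 and HTA2. In IMY104 they spanned 1888 to 5314 FPKM, and the chromosome 14 H4 gene came after the chromosome 2 H4 gene. Without a spread over libraries, neighbours in this order cannot be said to differ.

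Members moved under another scaling of the strains. With quantile normalization over chromosomal models, the log2 changes were -0.37 for HTA1, -0.44 for HTB1, -0.23 for HTA2 and -0.22 for HTB2. The chromosome 2 genes came to -0.22 for H4 and -0.04 for H3. On chromosome 14 the H4 gene changed sign, to 0.10, and H3 stood at 0.18. HHO1, which was not called, turned from -0.0044 to 0.0080. The median was -0.13 over the 10 members, 0.037 over models at or above a mean of 1000 FPKM and 0.0087 over all chromosomal models. The pair means under this scaling were -0.41 for HTA1-HTB1, -0.23 for HTA2-HTB2, -0.13 for the chromosome 2 H3-H4 pair and 0.14 for that of chromosome 14. HTA1-HTB1 remained the pair with the lowest mean and the chromosome 14 pair that with the highest, while the middle pairs exchanged places.

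Summed over both copies, H2A RNA went from 6881 FPKM in CEN.PK113-7D to 5105 in IMY104, a log2 ratio of -0.43, and H2B from 10306 to 7173, a log2 ratio of -0.52. H3 went from 9324 to 8436 FPKM, a log2 ratio of -0.14, and H4 from 12718 to 9921, a log2 ratio of -0.36. These sums were computed from the deposited values and carry no test. H3 thus kept 90.5% of its reference level, against 78.0% for H4, 74.2% for H2A and 69.6% for H2B. The ratio of H2A and H2B to H3 and H4 was 0.780 in the reference and 0.669 in IMY104. The 8 core genes together held 1.56% of all FPKM in the reference and 1.27% in IMY104. With quantile normalization the H3 ratio changed sign, to 0.06, and the others were -0.32 for H2A, -0.36 for H2B and -0.08 for H4.

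**Figure D2:**
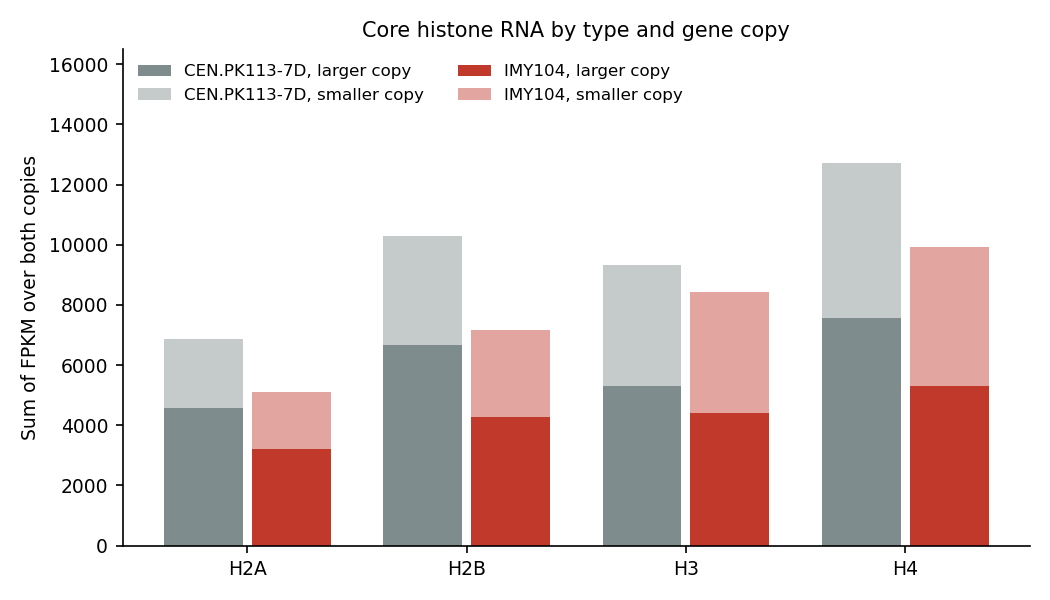
FPKM of H2A, H2B, H3 and H4 RNA, summed over both gene copies, in CEN.PK113-7D (grey) and IMY104 (red); dark segments are the copy with the higher reference level (HTA1, HTB1 and the chromosome 2 H3 and H4 genes) and pale segments the other copy. The dark segment is smaller in IMY104 for each histone, and the H2B sum goes from 10306 to 7173 FPKM.

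The copy with the higher level in CEN.PK113-7D had the lower log2 change for each of the 4 core histones, so the copies were closer in IMY104. These copies form HTA1-HTB1 and the chromosome 2 H3-H4 pair, so H2A and H2B are not separate cases, nor are H3 and H4. HTA1 and HTB1 also lie in the low stretch of chromosome 4 described below. The copies were picked by the reference level, which also enters the log2 change, and this favours a lower value. The same copies were the higher in IMY104, and how much the choice adds was not tested. HTA1 made up 66.5% of H2A RNA in CEN.PK113-7D and 63.0% in IMY104. HTB1 made up 64.7% and 59.5% of H2B RNA. The chromosome 2 gene made up 56.9% and 52.2% of H3 RNA, and 59.4% and 53.6% of H4 RNA. Reads that match both copies could be split between them. In R64 the coding sequences of HTA1 and HTA2 are 93.7% identical, with 65 bp as the longest stretch in common at the same place, those of HTB1 and HTB2 87.9% (35 bp), those of HHT1 and HHT2 93.2% (74 bp) and those of HHF1 and HHF2 97.4% (80 bp). The H4 copies differ at 8 of 312 positions, so their separate values are the least certain of the pairs, and the sources used here do not say how the authors assigned shared reads. The H4 models are also shorter than the library inserts, which the labels put at 350 bp, so levels of H4 against the other histones are less certain than differences between strains.

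HTA1 and HTB1 lie in a stretch of chromosome 4 whose models were low in IMY104. All 20 neighbours, 10 models on each side of the pair, had log2 changes below 0, and 19 of them were called lower by the authors' deposited table. Their median was -0.53, and 3 of 5127 windows of 21 models over the genome, all 3 centred within this stretch, had a median as low. The stretch was already known to be low from these same values, so this count is only a description. The windows also keep the histone models, which the neighbours leave out. CRF1, a corepressor of ribosomal protein genes and the model next to HTB1, had 197 FPKM in the reference and 46.7 in IMY104, a log2 change of -2.07 by the authors' deposited table. ADK1, the adenylate kinase gene next to HTA1, had 1960 and 1273 FPKM, a log2 change of -0.62 by the authors' deposited table. Of the remaining neighbours, the lowest were the sporulation septin gene SPR28 with -1.30, the HSP90 activator gene AHA1 with -0.96, YDR222W with -0.86 and GTB1, for a glucosidase II subunit, with -0.73 by the authors' deposited table.

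The run of models below 0 around the pair went from 883756 to 994562 on chromosome 4, 111 kb with 49 models, from GCD6 to DIN7. No other run in the genome exceeded 12 models. The run was found from the same values, so it is given as a description. Of its 47 models other than HTA1 and HTB1, 43 were called lower, and their median log2 change was -0.51 with quartiles of -0.57 and -0.40. HTA1 lay 0.00087 from that median, with 24 models of the run below it and 23 above. HTB1 lay -0.13 from it, with 9 models below and 38 above. The 10 models before the run had a median of -0.05 and the 10 after it 0.03. A distance of 13394 bp without a tested model preceded the run, and the model on its far side had a log2 change of 0.47. What the low values of HTA1 and HTB1 share with those of the run was not tested.

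The other pairs lay among neighbours centred near 0. The 19 neighbours of HTA2-HTB2 that are no members had a median log2 change of 0.06, with 2 called lower and 4 higher by the authors' deposited table. Those next to the pair, UTP20 and ECM15, had -0.10 and -0.13 and were not called by the authors' deposited table. The neighbours of the chromosome 2 H3-H4 pair had a median of 0.02, with 2 of 19 lower and 3 higher by the authors' deposited table. These neighbourhoods overlap: 9 models lie between the pairs and are among the 19 of each, and they include all of the called models around the H3-H4 pair. Next to this pair, FLR1, a drug exporter gene, fell with -0.41 and IPP1, the inorganic pyrophosphatase gene, had -0.08 and was not called by the authors' deposited table. The 20 neighbours of the chromosome 14 pair had a median of 0.02, with 1 lower and 2 higher, and SIW14 and KTR5 beside it had -0.0044 and 0.04 by the authors' deposited table.

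Set against these neighbours, the order of the pairs changed. The mean log2 change of HTA1-HTB1 differed by -0.05 from the median of its neighbours. For HTA2-HTB2 the difference was -0.37, for the chromosome 2 H3-H4 pair -0.41 and for the chromosome 14 pair -0.10. With 5 or 20 models on each side the difference for HTA1-HTB1 was 0.02 and -0.13, that for HTA2-HTB2 was -0.33 and -0.36, that for the chromosome 2 H3-H4 pair -0.43 and -0.44, and that for the chromosome 14 pair -0.10 and -0.09. On the authors' scaling, HTA2-HTB2 and the chromosome 2 H3-H4 pair differed more from their neighbours than HTA1-HTB1 did in all of these windows. The stretch around HTA1-HTB1 was already known to be low from these same values, which favours a small difference there. The windows of a pair also share models, so they are not separate cases, and this order is only a description. The order of HTA1-HTB1 and the chromosome 14 pair depended on the window. These differences were not remade under quantile normalization, so whether the order holds there was not tested. Under it the pair means were -0.41 for HTA1-HTB1, -0.23 for HTA2-HTB2, -0.13 for the chromosome 2 H3-H4 pair and 0.14 for that of chromosome 14. Without the chromosome 4 models, 4 of the 8 remaining members were called lower. The neighbours of HTZ1 and HHO1 had medians of 0.02 and -0.04. HRD1 and PLB3 beside HTZ1 had -0.21 and -0.15, and TBF1 and NAN1 beside HHO1 had -0.11 and 0.09, none of them called by the authors' deposited table.

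**Figure D3:**
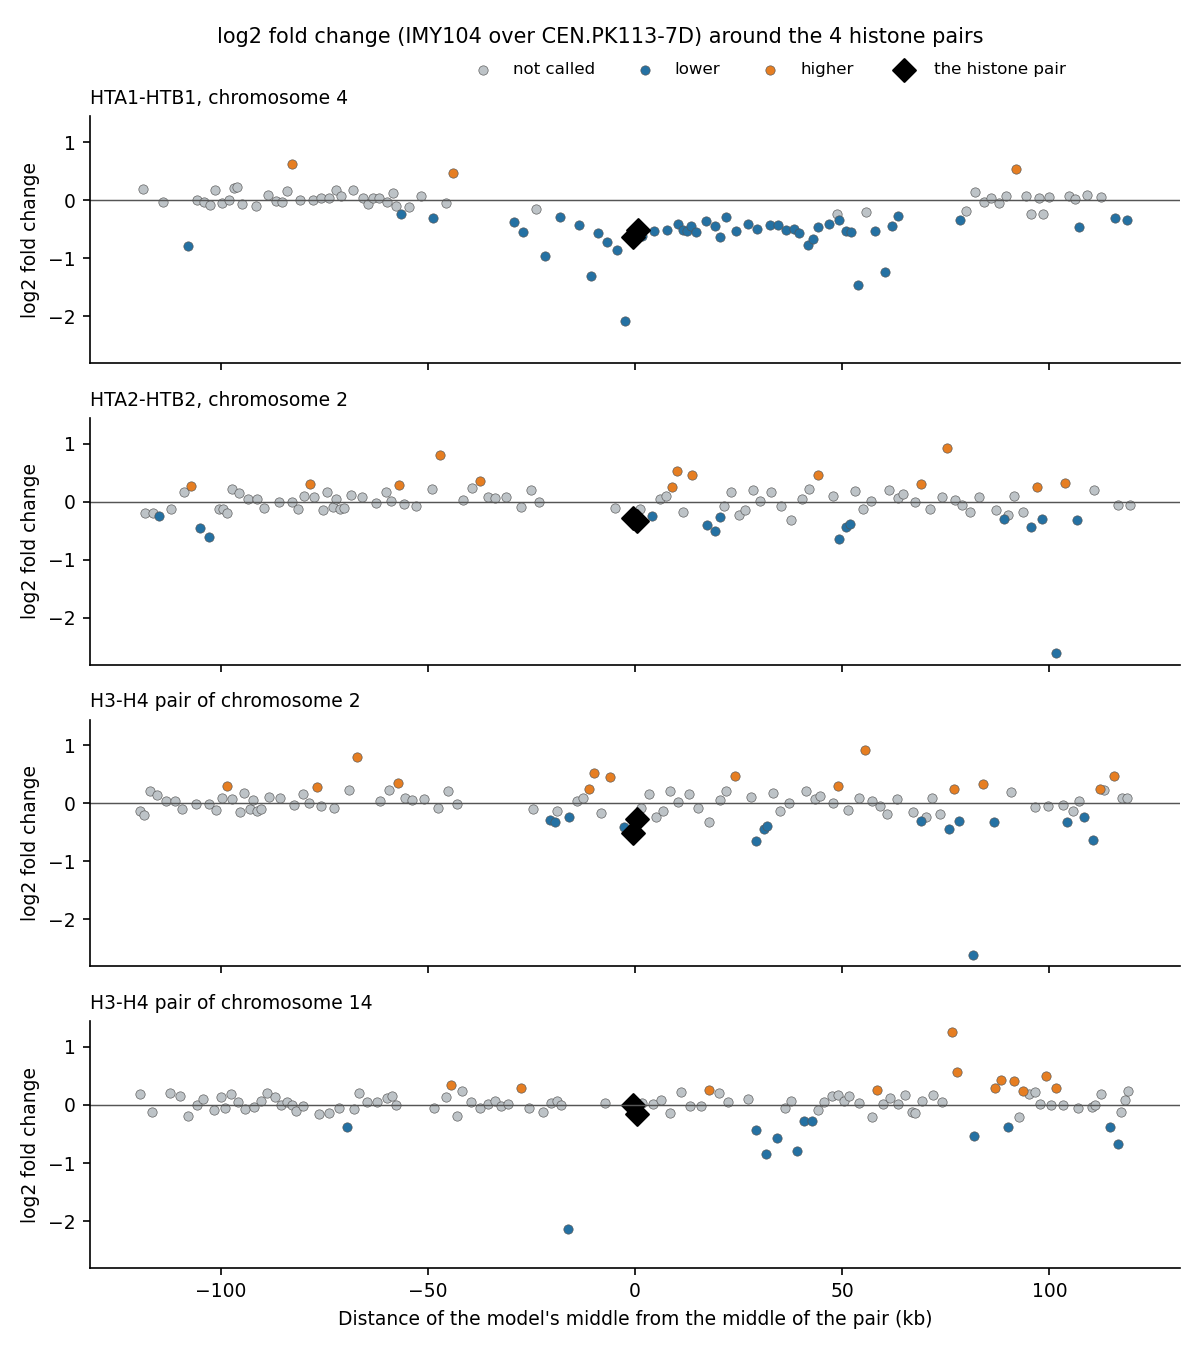
The authors' log2 change (IMY104 over CEN.PK113-7D) of each tested model against its distance in kb from the middle of each histone pair, 1 panel per pair; black diamonds are the pair, blue points were called lower, orange points higher and grey points were not called. HTA1 and HTB1 lie within the 49 models below 0 on chromosome 4, while the other pairs have neighbours with medians of 0.02 to 0.06.

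Genes that act on histones showed few calls. Of 12 regulators of histone gene transcription 1 rose and none fell, with a median log2 change of 0.04. The one that rose was ASF1, a histone chaperone that also acts with the HIR complex, from 64.1 to 79.5 FPKM with a log2 change of 0.31 (q = 0.0105) by the authors' deposited table. SPT10, the activator whose element is printed above, had a log2 change of 0.05, SPT21, its partner, 0.02, and the HIR complex genes HIR1, HIR2, HIR3 and HPC2 had 0.08, 0.08, -0.11 and 0.05, none of them called by the authors' deposited table. Of 11 tested genes for chaperones and nucleosome assembly, ASF1 again was the only one called. None of 15 genes for the exchange of H2A.Z was called, and their median was -0.00060. The centromeric H3 gene CSE4 had -0.04 and its chaperone gene SCM3 0.20, neither called by the authors' deposited table.

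Of 5 genes for the turnover of histone RNA and protein, RAD53, a checkpoint kinase that also promotes the breakdown of excess histones, rose to 12.2 FPKM with a log2 change of 0.29 (q = 0.0305) by the authors' deposited table. Of 22 genes active at G1/S and in S phase, when histone genes are transcribed, 2 fell, 1 rose and 19 were not called, with a median of -0.00036. RNR1, the large subunit of ribonucleotide reductase, fell with -0.36 and RFA3, a subunit of the single-strand DNA binding protein RPA, with -0.31, and CDC21, the thymidylate synthase gene, rose with 0.32 by the authors' deposited table. The shares called in these lists were at or under the 11% lower and, but for the turnover list of 5 with its 1 gene, the 11.6% higher of all models. At q under 0.01, where 7.54% of all models were higher and 8.51% lower, ASF1 and RAD53 were no longer called and RNR1, RFA3 and CDC21 still were.

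**Figure D4:**
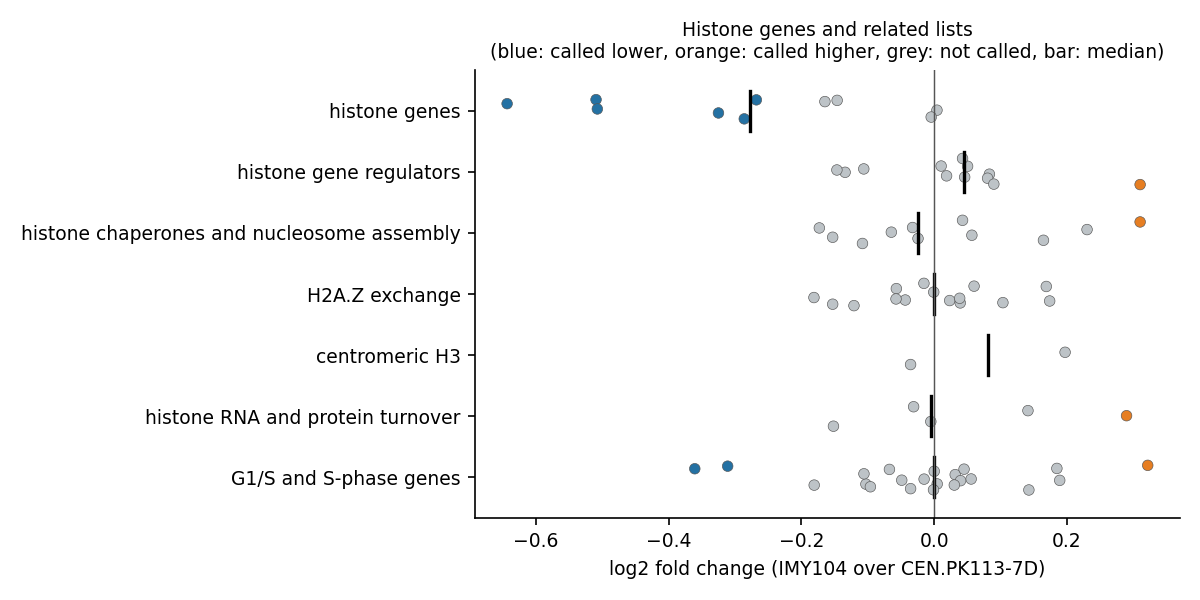
The authors' log2 change (IMY104 over CEN.PK113-7D) of the 10 histone models and of the tested genes of 6 related lists, 1 point per gene, with blue for called lower, orange for called higher, grey for not called and a black bar at each list's median. Histone genes have a median of -0.28, and the medians of the other lists lie between -0.02 and 0.08.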

How the data were processed

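RNA was measured in 6 libraries, 3 per strain. Per the submitters' processing notes, Cufflinks, Cuffdiff, SAMtools 0.1.7-r510, BWA 0.5.9-r16 and CASAVA 1.8.2 were used, with no roles given; genome build and scaling are unstated in the labels and file (not given in the sources used here). For every gene model, the authors deposited 1 FPKM value per strain, the log2 fold change, a signed fold (ratio) with minus the inverse where IMY104 is lower, a test statistic (a score), a p-value and a q-value, per the file headers. Models are JIGSAW predictions on the authors' assembly, per the model names. Blank lines (5447) were dropped.

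The planned fit with limma needs values per library and was not run, so calls are the authors', whose smallest p is 5e-05. For the 98 models with an absolute statistic of 2.4 to 2.6, p ran from 5e-05 to 0.329, so no standard error was derived from it. P-values measure the spread between libraries only as the authors' test does. Sums, shares, medians and neighbours (10 tested models on each side) were computed with Python 3.11.15 and pandas 2.3.3; the adjustment and scaling were tested on simulated data. Names follow R64 systematic names; 1 model per gene, the longest, entered a list. Members, lists and neighbours were chosen with earlier results of these data known. Named genes are all members, called list members (up to 6), and neighbours next to a pair or, on chromosome 4, the 6 lowest. Alternatives were a stricter q, a filter at 10 FPKM, a pseudocount of 5 FPKM, quantile normalization, centring on the median, and other windows. Protein sequences are not used here.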

Additional observations from a re-analysis of the deposited data

How the results depend on the processing

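The count of 6 lower histone models became 4 at q under 0.01, 6 with adjustment over models of at least 10 FPKM, 4 without the models whose name belongs to another chromosome and 4 without those of chromosome 4, the last of these alternatives being chosen after seeing the data, as was the one before it. Of 88 alternative values in all, 67 stayed within 0.1 on the log2 scale or 1.5 times a count, 18 log2 values moved further and 3 counts became smaller. Every log2 value that moved did so under quantile normalization or with the larger copy alone. Many of the 67 could hardly move, so their number does not measure how stable the results are under another scaling. A pseudocount of 5 FPKM moved no member by more than 0.00097, and subtracting the median of all genes by no more than 0.0076. Quantile normalization moved members by up to 0.287. It took the pair means to -0.41 for HTA1-HTB1, -0.13 for the chromosome 2 H3-H4 pair and 0.14 for that of chromosome 14, and the sums to -0.32 for H2A, -0.36 for H2B, 0.061 for H3 and -0.082 for H4; the cause was not tested. The larger copy alone gave log2 values of -0.64 for H2B, -0.27 for H3 and -0.51 for H4. In each case that copy had a lower log2 change than the other copy of the same histone. At q under 0.01 the counts of higher genes fell to 0 among regulators, among chaperones and nucleosome assembly, and in turnover, each from 1. No paired analysis was possible because the table holds 1 value per strain, and for the same reason no replicate could be left out. With the depth unknown, it cannot be said how small a change could have been called.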
